A study of Rattus norvegicus with 4 samples.

Results

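The subject is one short, very abundant long non-coding RNA (lncRNA) transcript of rat cardiomyocytes, NONRATT007996.2 (chromosome 12, 39957131 to 39959077 in the rat genome build rn6), and any listed transcript whose span overlaps it. 2 of the 17934 lncRNA transcripts listed in at least 1 library met this rule, the named transcript and NONRATT007997.2 (chromosome 12, 39958832 to 39959356). NONRATT007996.2 was picked from these same libraries, because it was among the most abundant transcripts and stood about 3-fold lower in high glucose at 48 h. Its level and its ratio at 48 h are therefore given as a description, with no test.

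Primary heart muscle cells of Sprague-Dawley rats, 1 to 2 days old, were kept in M199 medium that held carnitine at 2 mM and creatine and taurine each at 5 mM in every group. The normal glucose groups had glucose at 5 mmol/l with mannitol, a sugar alcohol that balances the osmolality, at 28 mmol/l. The high glucose groups had glucose at 33 mmol/l, which the series uses to model oxidative stress and apoptosis. Each medium was sampled at 24 h (libraries N24 for normal and H24 for high glucose) and at 48 h (N48 and H48), with 1 library of total RNA for each of these 4 groups. No group has a replicate library here, so the intervals below cover counting error only and no p-value is given for a difference between 2 libraries. The labels do not say how many hearts or cultures stood behind a library, and marker genes of cardiomyocytes or of other heart cells were not analysed here, since the tables hold lncRNA identifiers without gene names. In RNA from bulk cultures, fewer cells of a type and less RNA per cell cannot be told apart.

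lncRNAs are transcripts, longer than microRNAs and other small RNAs, that are not known to code for protein. They are spliced and polyadenylated much as messenger RNAs are or left as a single unspliced block. Some act in the nucleus on the chromatin or transcription of nearby genes, others bind proteins or microRNAs in the cytoplasm, and for many no function is known. NONCODE is a catalogue that collects such transcripts from many sources, and an entry can lie next to, inside or antisense to a protein-coding gene. In cultured heart muscle cells lncRNAs have been studied in hypertrophy, stress responses and cell death. No function is known from the sources used here for NONRATT007996.2 or NONRATT007997.2.

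The locus holds a spliced transcript and an unspliced one. NONRATT007996.2 is 217 nt long within a span of 1947 bases, so 1730 bases of the span (all but 11.1%) are not part of the transcript. NONRATT007997.2 is 525 nt long in a span of 525 bases, which makes it a single block. The 2 spans share 246 bases, 46.9% of NONRATT007997.2. NONRATT007996.2 is short among lncRNAs. Of the 7320 other transcripts in the measured set, which requires a mean of at least 1 FPKM (reads scaled by transcript length and library total) and a length of at least 200 nt, 14 (0.191%) were as short or shorter, and the median length was 775 nt. Both transcripts were listed in all 4 libraries and both passed this filter. The tables give no strand, exon positions or gene names, so the exons that make up the 217 nt, and whether they lie in a protein-coding gene, were not analysed here. Reads of a longer or antisense RNA that covers the same bases cannot be told apart from reads of NONRATT007996.2 in these counts, since no source used here says whether the counting used strand.

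By reads, NONRATT007996.2 was near the top of every library. It had 10114 reads in N24, 11784 in H24, 12260 in N48 and 3725 in H48. As a level in CPM (reads scaled by the library total, not by length), this was 851 in N24, 753 in H24, 825 in N48 and 262 in H48. The H48 library was thus low, and the other 3 libraries lay between 753 and 851 CPM, 1.13-fold apart from lowest to highest. The transcript took 1.19% of all lncRNA reads in N24 (95% Wilson interval 1.17 to 1.22), 1.10% in H24 (1.08 to 1.12), 1.14% in N48 (1.12 to 1.16) and 0.412% in H48 (0.399 to 0.425).

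**Figure D1:**
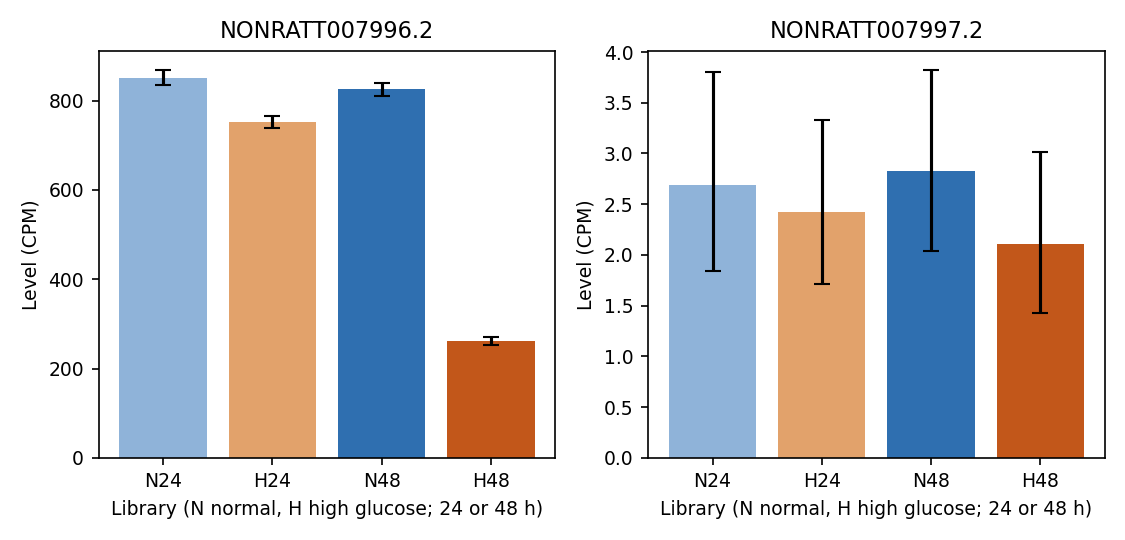
Level in CPM (vertical axis, from 0) of NONRATT007996.2 (left) and NONRATT007997.2 (right) in each library, by medium and time; bars are single libraries and error bars are exact 95% counting intervals. NONRATT007996.2 stands between 753 and 851 CPM in 3 libraries and at 262 CPM in H48, while the intervals of NONRATT007997.2 overlap across all 4 libraries.

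In the order of reads, NONRATT007996.2 ranked 2 in 3 libraries and 12 in H48. The transcript above it in those 3 libraries was NONRATT008251.2 (chromosome 13, 52663050 to 52680902, 1027 nt), with 11386 reads in N24, 15071 in H24 and 13382 in N48. Just below it came NONRATT011827.2 (chromosome 16, 19384862 to 19390410) with 9831 reads in N24 and 10594 in N48, and NONRATT017935.2 (chromosome 3, 6539099 to 6581345) in H24, with 10292. In H48 its neighbours in the order were NONRATT022294.2 with 3956 reads above it and NONRATT015286.2 with 3682 below it, and its 3725 reads were 0.942 and 1.01 times theirs. Of the 11 transcripts above it in that library, 1 was also above it in N48.

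Per length, it ranked first in all 4 libraries, the low one included. Its FPKM was 3924 in N24, 3469 in H24, 3803 in N48 and 1207 in H48. The next highest FPKM in each library was that of NONRATT008251.2. NONRATT007996.2 stood 4.20-fold above it in N24, 3.70-fold in H24, 4.34-fold in N48 and 1.70-fold in H48. FPKM divides by length, and 217 nt is a small divisor. The length implied by count, FPKM and library total came to between 216.994 and 217.002 nt in the 4 libraries, so the deposited FPKM divides by the full transcript length, with no shortening for fragment size. Among the other 207 measured transcripts under 300 nt, the highest mean FPKM over the 4 libraries was 326 (a transcript of 210 nt) and the median was 2.18, so the mean of 3101 for NONRATT007996.2 was 9.51 times the highest of them. Among the 148 of these whose span is longer than their length, as here, the highest was 59.3, and NONRATT007996.2 was 52.3 times as high.

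The labels set high against normal glucose at each time. Folds below are ratios of CPM, and log2 ratios are on CPM + 1 unless another scale is named. At 24 h NONRATT007996.2 was 1.13-fold lower in H24 than in N24 (95% counting interval 1.10 to 1.16), from 851 to 753 CPM. On log2 (CPM + 1) this ratio was -0.18, against a median of -0.04 over the other 7320 measured transcripts and quartiles of -0.22 and 0.15. It thus lay inside the middle range of all transcripts at this time, although its counting interval excludes 1, and with no replicates it cannot be set against the spread between cultures. 4.89% of measured transcripts were at least 2-fold apart at 24 h on that scale, and NONRATT007996.2 was not among them. After 48 h it was 3.15-fold lower in high glucose (3.04 to 3.27), from 825 to 262 CPM. Of all measured transcripts 7.17% were at least 2-fold apart at 48 h, 4.32% as lower and 2.85% as higher. This contrast chose the transcript, so nothing is read from its place among them. The library scaling moved the log2 of the plain CPM ratio at 48 h from -1.66 to between -1.47 and -1.45 with 3 other scalings, which is 2.74-fold to 2.77-fold lower. The same scalings moved the median of all measured transcripts at 48 h by 0.12 to 0.14 on the log2 scale. Relative to that median, NONRATT007996.2 was lower by 1.51 (log2) with the library totals and by 1.45 with each of the 3 others.

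Over time the transcript differed in the same single library. In normal glucose it was 1.03-fold lower at 48 h than at 24 h (1.00 to 1.06), from 851 to 825 CPM, with 42.0% of the other measured transcripts as low or lower. In high glucose it was 2.87-fold lower at 48 h (2.77 to 2.98), from 753 to 262 CPM. The 48 h comparison of the media and the comparison over time in high glucose share the H48 library, so their values are not independent. The glucose ratio at 48 h was 2.79-fold lower than that at 24 h (95% interval 2.66 to 2.92 from counting error, by the normal approximation on the log scale), a value that also rests on that 1 library and was not tested against spread between cultures. Whether the low value belongs to the condition or to the library cannot be told apart with 1 library. That library also had the lowest share of lncRNA reads, 6.36% of its total, against 6.83% to 7.24% in the others.

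**Figure D2:**
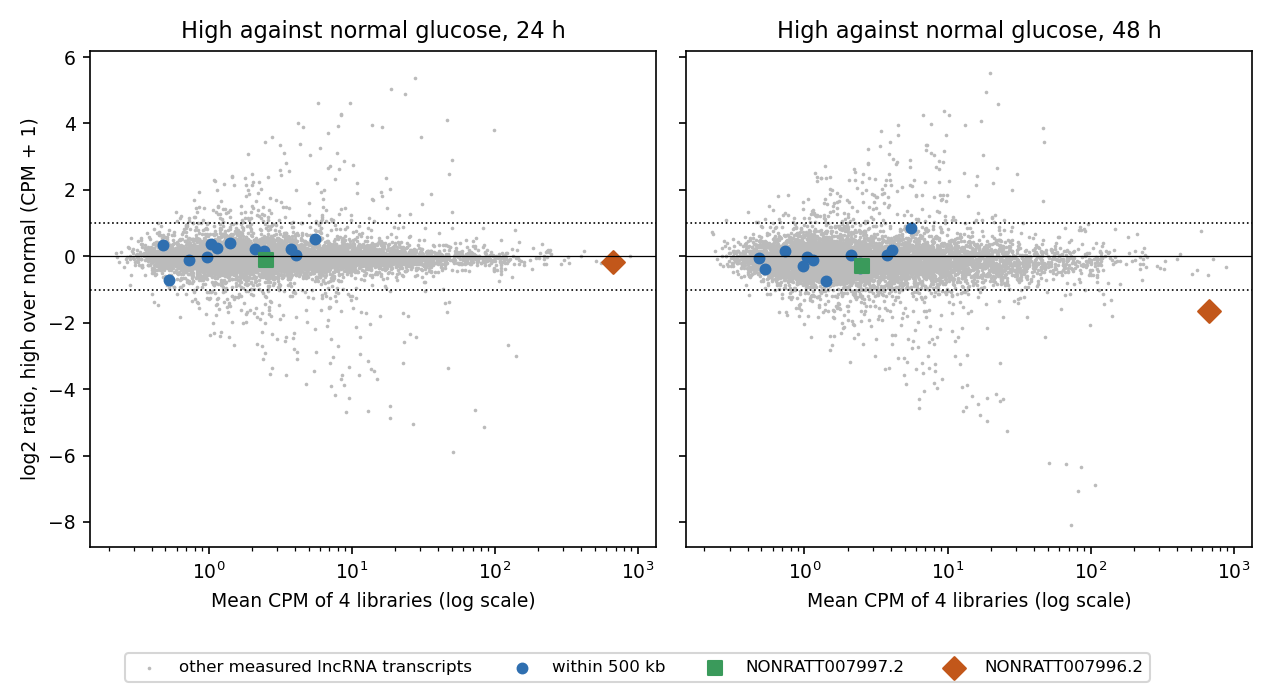
Log2 ratio of high over normal glucose on CPM + 1 (vertical axis) against mean CPM over 4 libraries (horizontal axis, log scale) for the 7321 measured lncRNA transcripts at 24 h (left) and 48 h (right); dotted lines mark 2-fold. NONRATT007996.2 (diamond) sits at -0.18 at 24 h and at -1.65 at 48 h, and NONRATT007997.2 (square) and the 13 measured transcripts within 500 kb (blue) lie inside the dotted lines at both times.

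Transcripts of like abundance gave the setting for these ratios. The 99 others of the 100 highest mean CPM had a median log2 ratio of -0.15 at 48 h, with quartiles of -0.37 and 0.01, and 7 of them stood 2-fold or more lower in H48 while 0 stood 2-fold or more higher. At 24 h their median was -0.09, with quartiles of -0.22 and 0.02. The 207 others under 300 nt had a median of -0.10 at 48 h with quartiles of -0.30 and 0.14, over a range of -1.77 to 1.82. Of these, 7 were 2-fold or more lower in H48 and 6 were higher by as much. Beside both sets of counts, the shares over all measured transcripts at 48 h were 4.32% lower and 2.85% higher.

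The overlapping partner NONRATT007997.2 was a low transcript whose levels could not be told apart between libraries at this depth. It had 32 reads in N24, 38 in H24, 42 in N48 and 30 in H48. Its levels were 2.69, 2.43, 2.83 and 2.11 CPM in that order, so H48 was again the lowest library, but the counting intervals of all 4 overlapped. H24 was 1.11-fold below N24 (0.671 to 1.82) and H48 1.34-fold below N48 (0.819 to 2.22). The interval at 48 h excludes a 3-fold difference but not a 2-fold one. In edgeR's quasi-likelihood test with terms for medium and time, where the times stand in for replicates and 1 residual degree of freedom is left, its log2 change with high glucose was -0.29 (adjusted p = 0.902, Benjamini-Hochberg over 7321 transcripts), lower in 2 of 2 pairs of libraries. Its change from 24 h to 48 h was -0.07 (adjusted p = 0.994 in the same edgeR fit), higher in normal and lower in high glucose.

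The ratio between the partners moved with the abundant one. Per length, NONRATT007996.2 stood 765-fold above NONRATT007997.2 in N24, 750-fold in H24, 706-fold in N48 and 300.4-fold in H48. By reads the ratios were 316 (95% counting interval 224 to 462), 310.1 (226 to 438), 292 (216 to 405) and 124 (86.8 to 184) in the same order. The low ratio in H48 restates the low reads of NONRATT007996.2 there, which chose it, and is a description. The ratio is taken within a library and so does not depend on the library totals. Adding the partner's reads to those of NONRATT007996.2 put the locus in H24 1.13-fold below N24 and in H48 3.14-fold below N48.

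The surrounding lncRNA transcripts were sparse and low. Another 22 transcripts were listed within 500 kb of the span, 18 on the side of lower coordinates and 4 on the other, and 13 of them were in the measured set. Their mean FPKM ran from 1.01 to 5.88 with a median of 2.27, and no library gave any of the 22 more than 121 reads. NONRATT007996.2 was 527 times the highest of them by mean FPKM. It held 96.6% of the lncRNA reads of the window in N24, 95.7% in H24, 96.4% in N48 and 89.2% in H48. The nearest measured neighbours were NONRATT007995.2 (39865481 to 39866960, 737 nt, spliced), 90.2 kb before the span, and NONRATT007549.2 (40220159 to 40221068, a single block of 910 nt), 261 kb after it.

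On log2 (CPM + 1), 0 of 13 measured neighbours at 24 h and 0 of 13 at 48 h differed by 2-fold or more between the media, against 4.89% and 7.17% of all measured transcripts, so for 13 transcripts these counts are close to the background. At 48 h their median log2 ratio was -0.05, over a range of -0.75 to 0.84, against -0.14 over all measured transcripts, and 8 of 13 lay below 0. At 24 h their median was 0.21, over a range of -0.72 to 0.51, against -0.04, and 3 of 13 lay below 0. The pseudocount of 1 CPM holds back the ratios of such low transcripts. As plain ratios of CPM, an alternative chosen after seeing the data, 2 of 13 were 2-fold or more lower in H48 than in N48, NONRATT007537.2 and NONRATT007993.2, against 12.9% of all measured transcripts, and 0 were higher, against 6.32%. At 24 h, 1 was 2-fold or more lower, NONRATT007537.2, against 6.2%, and 1 higher, NONRATT007992.2 with 4 and 11 reads, against 5.21%. All 3 were named after their values were seen, and NONRATT007537.2 reached the filter's mean of 1 FPKM only through N24. NONRATT007992.2 (1.71 FPKM in H24) reached it only through H24, by a very small margin. NONRATT007533.2 also did so only through H24, with 1.31 FPKM there, 0.975 in N24, 0.960 in N48 and 0.814 in H48. For these last 2 a level in H24 above that in N24, and their part in the 24 h median, are thus partly built in.

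NONRATT007537.2 (39745306 to 39747707, 504 nt, spliced, 209 kb before the span) had 14 reads in N24, 5 in H24, 7 in N48 and 2 in H48, so both high glucose libraries were low. Its FPKM was 2.34 in N24, 0.634 in H24, 0.935 in N48 and 0.279 in H48. It thus reached the filter's mean of 1 FPKM only through N24, so a level in H24 below that in N24 is partly built in. H24 was 3.69-fold below N24 (95% counting interval 1.26 to 13.1) and H48 3.35-fold below N48 (0.638 to 33.1), and the interval at 24 h excludes 1 while that at 48 h does not. NONRATT007993.2 (39821542 to 39822007, a single block of 466 nt, 135 kb before the span) had 15 reads in N24, 31 in H24, 26 in N48 and 9 in H48. H48 was 2.77-fold below N48 (1.26 to 6.71), while H24 was 1.57-fold above N24 (0.821 to 3.13). Its log2 change with high glucose in the edgeR quasi-likelihood test was -0.34 (adjusted p = 0.938), higher at 24 h and lower at 48 h. The summed reads of all 22 were 322 in N24, 495 in H24, 410 in N48 and 423 in H48. Per library total, the sum in H24 was 1.17 times that in N24 and the sum in H48 1.08 times that in N48, with no counting interval computed. The neighbour with the highest level, NONRATT007994.2, gave 64 of the reads in N48 and 121 of those in H48. Without it the sum per library total was lower in H48 than in N48, and still higher in H24 than in N24.

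NONRATT007995.2 had 37 reads in N24 and 59 in each of H24, N48 and H48. H24 was thus 1.21-fold above N24 (95% counting interval 0.789 to 1.88) and H48 1.04-fold above N48 (0.715 to 1.52). NONRATT007549.2 had 46 reads in N24, 62 in H24, 58 in N48 and 65 in H48, 1.02-fold higher (0.687 to 1.53) and 1.17-fold higher (0.809 to 1.70). Neither neighbour differed between the media beyond counting error at either time.

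The neighbour with the highest level, NONRATT007994.2 (39822044 to 39823266, 944 nt, spliced, 134 kb before the span), leaned the other way. It had 44 reads in N24, 89 in H24, 64 in N48 and 121 in H48. H24 was 1.53-fold above N24 (1.06 to 2.26) and H48 1.97-fold above N48 (1.45 to 2.72). In the edgeR quasi-likelihood test its log2 change with high glucose was 0.80 (adjusted p = 0.882), higher in 2 of 2 pairs of libraries. With TMM factors, DESeq2 size factors or equal sums it passed 2-fold at 48 h, so the count of 0 of 13 became 1 of 13.

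No neighbour within 500 kb passed the adjusted threshold of 0.05 for medium in edgeR, where 0.0137% of all measured transcripts did, or for time, where 0% did. At an unadjusted p under 0.05, edgeR gave 2 of the 13 for medium, NONRATT007994.2 as higher and NONRATT007537.2 (fitted log2 change -1.79, adjusted p = 0.882 by edgeR) as lower, and 0 for time. Over all measured transcripts 4.75% and 4.25% had such a p in edgeR. NONRATT007537.2 entered the measured set only through N24, so its lower level in high glucose is partly built into its place among the 13. DESeq2 gave 8 of the 13 an adjusted p for medium and 11 for time and called 0 of them, against 0.392% and 0.508% of all transcripts with one. At an unadjusted p under 0.05, DESeq2 gave 0 of the 13 for either term, against 1.97% of all measured transcripts for medium and 1.75% for time. limma on log2 (FPKM + 1) called 0 of the 13 after adjustment, against 0% for medium and 0.164% for time. Unadjusted, limma gave 2 of the 13 for medium, against 4.9%, and 0 for time, against 4.34%.

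**Figure D3:**
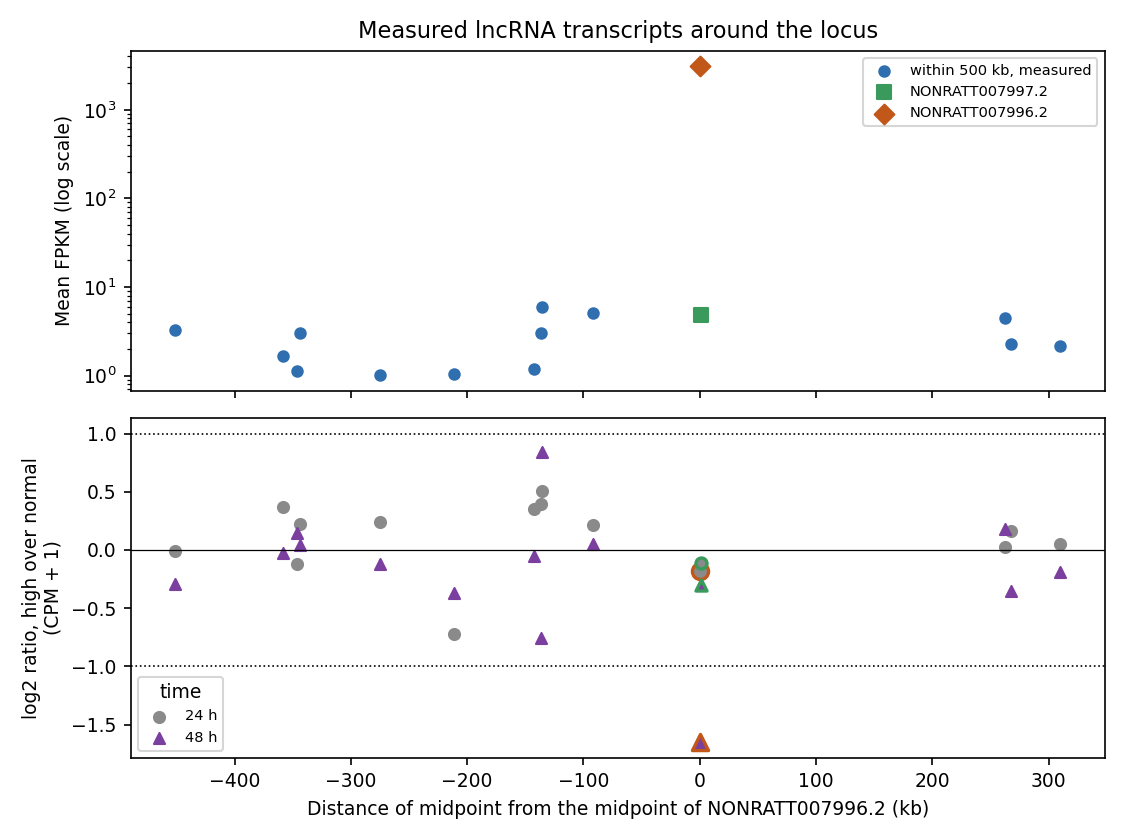
Mean FPKM over 4 libraries (top, log scale) and log2 ratio of high over normal glucose on CPM + 1 at 24 h and 48 h (bottom) for the measured lncRNA transcripts, by distance in kb from the midpoint of NONRATT007996.2; in the bottom panel an orange edge marks NONRATT007996.2 and a green edge NONRATT007997.2, and dotted lines mark 2-fold. NONRATT007996.2 is at 3101 FPKM with neighbours at 1.01 to 5.88. Its 48 h ratio, which chose it, is at -1.65, and those of the neighbours run from -0.75 to 0.84 on this scale.

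NONRATT007996.2 took a large part of the lncRNA reads of its chromosome. It held 36.3% of all lncRNA reads of chromosome 12, over 543 listed transcripts, in N24, 33.1% in H24, 35.0% in N48 and 15.6% in H48. The chromosome 12 sum per library total in H48 was 0.713 times that in N48 with NONRATT007996.2 and 0.926 times without it. At 24 h these ratios were 0.970 and 1.02, on either side of 1. Of the whole lncRNA share, which was 0.878 percentage points lower in high glucose at 48 h, NONRATT007996.2 made up 0.0563 points, or 6.42% of the difference. Without it the lncRNA share in H48 was 0.885 times that in N48, against 0.879 times with it.

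The transcripts with the most similar pattern were sought over the 4 libraries, by the Euclidean distance between log2 (CPM + 1) values centred on each transcript's own mean, among 2189 other measured transcripts with at least 50 reads in every library. They were picked by their values, so these are a description. The nearest was NONRATT019918.2 (chromosome 3, 159710976 to 159775883, 839 nt, spliced), at a distance of 0.0933, against a median of 1.33 over all 2189. It had 156 reads in N24, 188 in H24, 208 in N48 and 51 in H48. H24 was 1.09-fold below N24 (95% counting interval 0.879 to 1.36) and H48 3.91-fold below N48 (2.86 to 5.41). The next was NONRATT027084.2 (chromosome 7, 119038504 to 119071705, 695 nt, spliced), at 0.129, with 357 reads in N24, 436 in H24, 460 in N48 and 115 in H48. H24 was 1.08-fold below N24 (0.936 to 1.24) and H48 3.83-fold below N48 (3.12 to 4.74).

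The nearest 5 all lay on other chromosomes, within a distance of 0.352, and all had a span longer than their length. Chromosome 12 held 231 of the 7321 measured transcripts, so their lying elsewhere is close to the background. The share of the 2189 candidates with a span longer than their length is not given here. In the nearest 5, the H48 library was 2.44-fold to 3.91-fold below the N48 library. Their ratio of N24 over H24 lay between 0.915 and 1.13. Their mean FPKM ran from 12.7 to 96.7, against 3101 for NONRATT007996.2, so they shared its profile over the libraries but not its level.

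**Figure D4:**
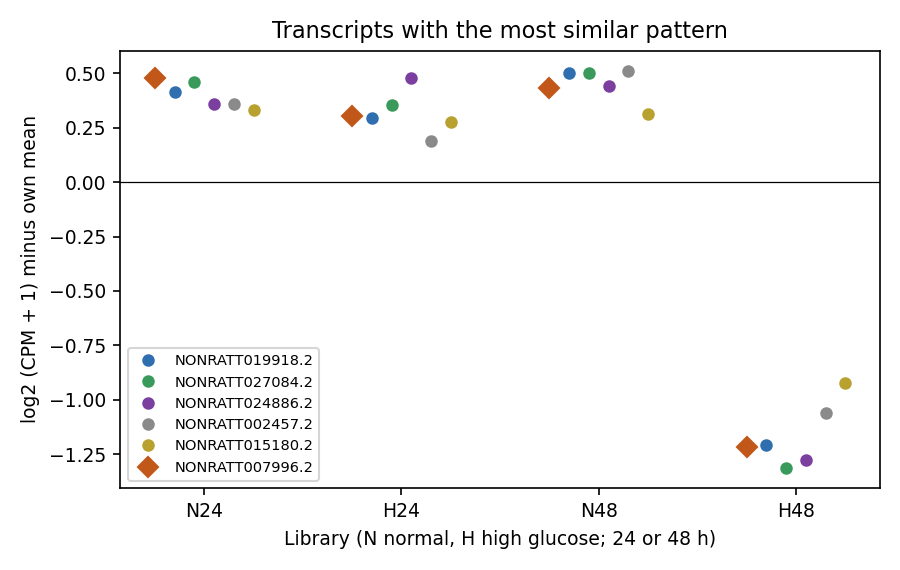
Log2 (CPM + 1) minus each transcript's own mean over 4 libraries (vertical axis) in each library (horizontal axis) for NONRATT007996.2 (diamond) and the 5 transcripts nearest to it (circles); points are single libraries, shifted sideways to be seen apart. All 6 are above their mean in 3 libraries and below it in H48, by choice of the measure.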

How the data were processed

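1 library of total RNA was sequenced for each of 4 groups, taken from the sample titles. The submitters' processing notes name TopHat2 2.1.0 and Cufflinks and the builds rn6 and Rnor_6.0. Which tool counted the reads, whether it used strand, and which annotation it used are not given in the sources here. The authors deposited raw read counts and FPKM per lncRNA transcript, as the file headers name them. The lowest count listed was 1, and an unlisted transcript was taken as 0. Transcript length in nt was deposited with 1 library.

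Counts summed to between 846946 and 1075428. The totals behind the FPKM, recovered as the median of count over length and FPKM, were 11877895 to 15654067, and CPM used them; whether they count reads or fragments is not known. 1 read was worth 0.0639 to 0.0842 CPM. Ratio intervals are exact (Clopper-Pearson, conditional on both counts) and those of levels exact Poisson, at 95%. All intervals cover counting error only. Without molecular identifiers, PCR copies are counted as separate reads, so these intervals can be too narrow even for counting error.

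edgeR 4.0.16 (glmQLFit, glmQLFTest) was fitted to 7321 measured transcripts with terms for medium and time. DESeq2 1.42.0, limma 3.58.1, TMM factors, size factors, equal sums, other windows and no filter were alternatives. The named transcripts were the overlapping ones, the neighbour with the highest CPM and the nearest on each side, neighbours past 2-fold, the nearest in the order of reads, and the 5 with the most similar pattern (2 of which are printed, since the files pair identifiers with no gene names). NONRATT007533.2, NONRATT007537.2, NONRATT007992.2, NONRATT007993.2 and NONRATT007560.2 were named after their values were seen. The members and lists were chosen with earlier results of these data known. Sequences were not analysed here.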

Additional observations from a re-analysis of the deposited data

Results flagged for a closer look

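NONRATT007997.2, the overlapping partner, had log2 ratios of 48 h over 24 h on CPM + 1 of opposite sign in the 2 media, 0.051 in normal glucose and -0.14 in high glucose. The difference was not tested, each ratio rests on 1 library per group, and the counting intervals of both ratios include 1 (0.647 to 1.72 and 0.520 to 1.44 on the fold scale).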

How the results depend on the processing

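The ratios of NONRATT007996.2 kept their direction under the 5 alternatives run (TMM factors, DESeq2 size factors, libraries rescaled to the same sum, a pseudocount of 1, and the sum over both overlapping transcripts). The log2 ratios that follow are with TMM factors, size factors and the same sum, in that order. High over normal glucose was -0.13, -0.13 and -0.12 at 24 h against -0.18, and -1.46, -1.45 and -1.47 at 48 h against -1.66. The ratio of 48 h over 24 h in high glucose was -1.38, -1.38 and -1.42 against -1.52. Each of these scalings gave H48 a lower total than the recovered one, and N24 and N48 a higher one. The level in H48 thus rose, and those in N24 and N48 fell. The count of neighbours past 2-fold between the media was 0 at both times. At 24 h it was 1 with a pseudocount of 0.25 (NONRATT007537.2) and 1 of 24 in a window of 1000 kb (NONRATT007560.2). At 48 h it was 1 with each of the 3 other scalings (NONRATT007994.2), 1 with a pseudocount of 0.25 (NONRATT007993.2, 26 and 9 reads) and 1 of 24 in a window of 1000 kb (NONRATT007560.2). With no pseudocount, chosen after seeing the data, it was 2 at each time. It was 0 at both times in a window of 250 kb, with 5 measured transcripts, and with no filter. NONRATT007560.2 passed the filter only through the high glucose libraries, so its place among the 24, and its higher level there, are partly built in. The count of neighbours called for medium or for time was 0 under all 10 alternatives of each, with the smallest adjusted p between 0.324 and 1.00 for medium and between 0.363 and 1.00 for time, in fits that included DESeq2, limma and each library left out. Fits without a library had no term for time or medium, and the lone library of an arm was assumed to vary like the others. No block on replicate numbers could be fitted, since each group has 1 library; the terms for medium and time set the media against each other within each time. The high glucose library at 48 h decides the 48 h ratio, and depth limits the neighbours, at 121 reads or fewer per library.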

Other observations

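994.5 kb beyond the span, outside the window described, NONRATT007560.2 (40953589 to 40955998 on chromosome 12, unspliced, 2410 nt) was high in both high glucose libraries. It had 8 reads in normal and 159 in high glucose at 24 h, 15.1-fold higher (95% counting interval 7.47 to 35.5), and 9 and 423 reads at 48 h, 49.1-fold higher (25.6 to 108). It was singled out after its values were seen. It reached the filter's mean of 1 FPKM only through the high glucose libraries, so a higher level there is partly built into its place in the measured set. The edgeR, DESeq2 and limma fits to the measured set covered it, and their results for it are not given here. As plain ratios of CPM, 5.21% of all measured transcripts were 2-fold or more higher in high glucose at 24 h and 6.32% at 48 h. These shares are at 2-fold, and how many differed by as much as NONRATT007560.2 is not given here.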
